A study of Rattus norvegicus with 12 samples.

Results

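Transcripts of plasma protein genes were measured in rat lung: the 3 fibrinogen chains Fga, Fgb and Fgg, the protease inhibitor gene A2m, the albumin gene Alb, the complement gene C3 and Orm1, which encodes alpha-1-acid glycoprotein. All probe sets whose only gene symbol in the array platform's annotation was one of these 7 names were taken, which gave 7 of the 4737 genes with such a probe set and 20 of the 8740 probe sets that are not array controls. Fga had 3 probe sets, Fgb 2, Fgg 2, A2m 6, Alb 4, C3 2 and Orm1 1. No probe set was filtered out for a low value.

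The data are 12 RG-U34A arrays (Affymetrix, a single label per array) of lungs from male Sprague-Dawley rats, with 3 arrays in each of 4 groups, labelled as 3 biological replicates. Rats of the T/HS group (trauma followed by hemorrhagic shock) had the femoral artery and jugular vein cannulated and a laparotomy, and were then bled into heparin to a mean arterial pressure of 30 mmHg for 90 min, after which the shed blood was returned; this group had lung injury. T/HS-LDL rats were bled in the same way after the mesenteric lymph duct had been ligated and divided, T/SS-LDL rats had the ligation with cannulation and laparotomy but no bleeding, and rats of the T/SS group (trauma, sham shock) had cannulation and laparotomy alone; no injury of the lung was measured in these 3 groups. The organs were removed 3 h after the end of the shock or sham period, 4.5 h after it began, so a laparotomy and cannulation were common to every group, the T/SS controls included. The ages of the rats were not given in the sources used here.

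Fibrinogen is a plasma protein built from alpha, beta and gamma chains that thrombin turns into fibrin, the mesh of a clot. Most of it comes from the liver, where the acute phase response, driven by interleukin 6, interleukin 1 and glucocorticoids, raises the fibrinogen chains, alpha-2-macroglobulin, alpha-1-acid glycoprotein and haptoglobin and lowers albumin. Epithelial cells and macrophages of the lung can also transcribe genes of this class, C3 among them. In the rat, alpha-2-macroglobulin is a classical acute phase protein of the liver. In whole lung, more cells of a type and more RNA per cell cannot be told apart.

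Every group held 1 near-identical pair of arrays, whose log2 differences had a robust SD of 0.00993 to 0.0548, while the remaining 8 same-group pairs gave 0.164 to 0.232. These were replicates 2 and 3 of T/SS and replicates 1 and 3 of T/HS, T/HS-LDL and T/SS-LDL. Each such pair was averaged into 1 sample, which left 8 samples, 2 per group. Whether such a pair is 1 rat measured again is not given in the sources used here, so p-values measure only the spread between these samples. Array medians lay between 647 and 677 intensity units. All 8 measured markers of lung epithelium, Sftpc and Scgb1a1 among them, lay at percentile 90.4 or higher of the arrays. At an adjusted p of 0.05 limma, the only tool run, passed 0 of 8740 probe sets in each of 6 contrasts, with 261 (interaction) to 790 (shock over both duct states) at an unadjusted p under 0.05, so no difference below passed the threshold.

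None of the 20 probe sets differed between shocked and sham-shocked lungs past the threshold, and most intervals of the array signal were narrow. Of the 20, 13 were dimmer than the median probe set. How far so low a signal follows a change in RNA was not tested, so their intervals bound the signal only. The mean of the 2 shock effects (T/HS minus T/SS and T/HS-LDL minus T/SS-LDL) had a median of 0.03 on the log2 scale over the 20 probe sets, from -0.16 to 0.29, beside a median of 0.01 over all 8740 probe sets. The 95% interval of this effect lay between a 2-fold fall and a 2-fold rise for 20 of 20 probe sets, and its upper bound lay below a 1.5-fold rise for 18 of 20. The 2 wider intervals were those of Fgg. By an unadjusted p under 0.05, 1 of 20 probe sets (Fga) passed for shock over both duct states, against 9.04% of all probe sets, and 0 of 20 passed at an adjusted p of 0.05, against 0.0% of all. The smallest adjusted p among the 20 was 0.403.

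**Figure D1:**
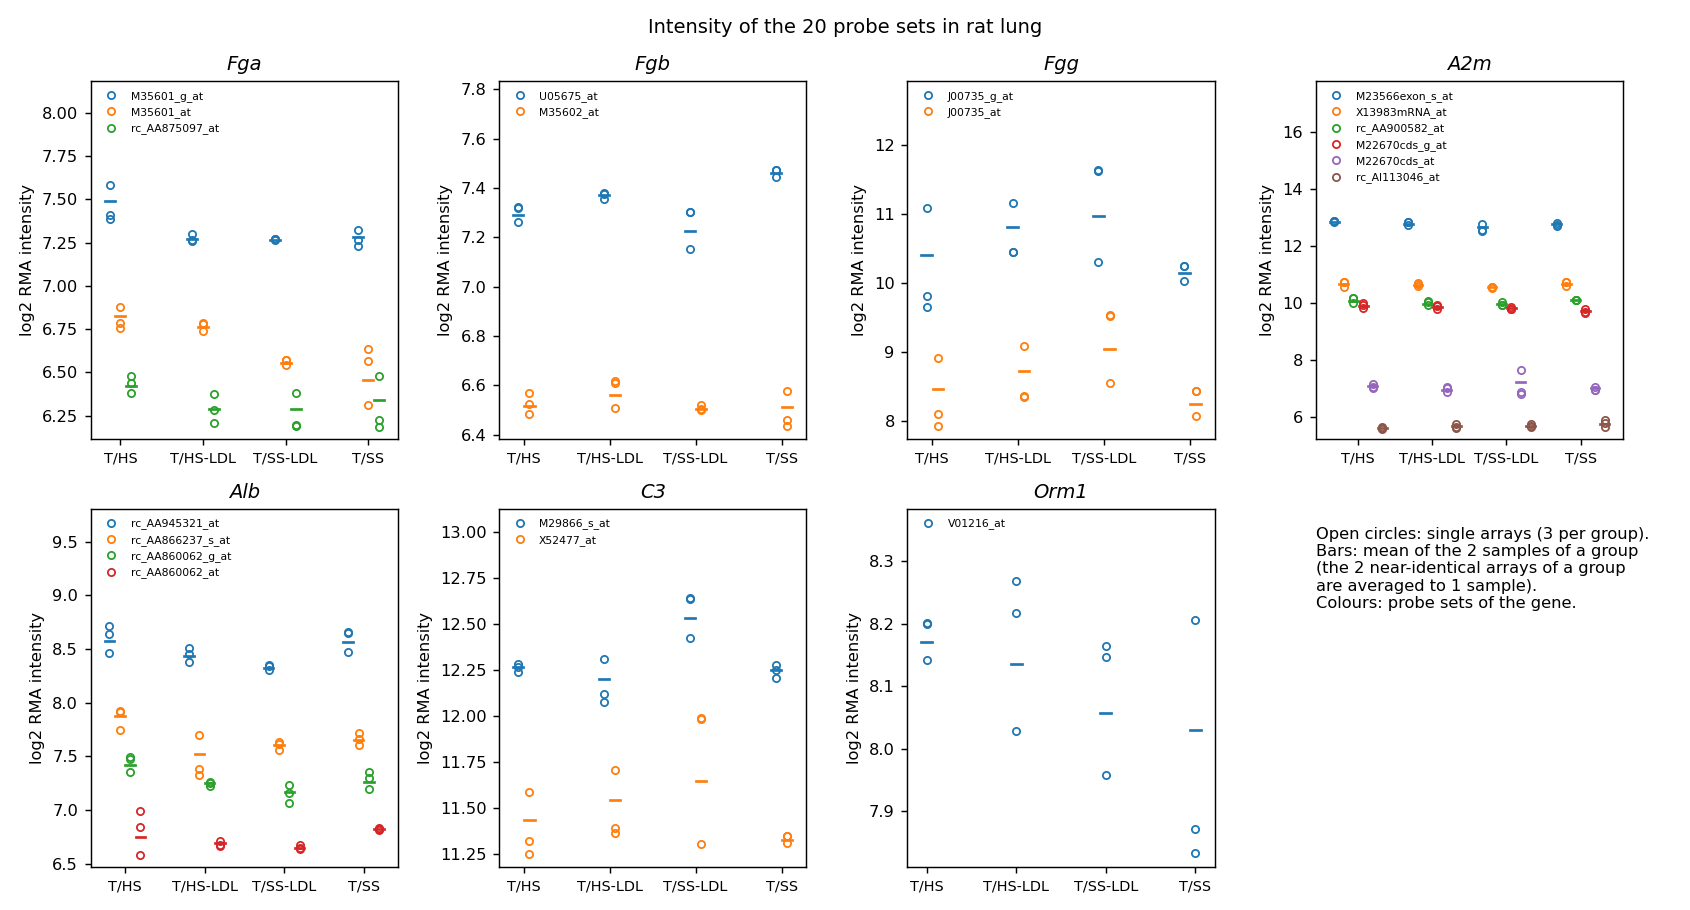
Log2 RMA intensity (vertical axis) of the 20 probe sets in the 4 groups (horizontal axis), 1 panel per gene. Open circles are single arrays, bars are group means over 2 samples and colours are probe sets; the circles of Fgg spread most within groups, with 2 samples of T/HS differing 2.56-fold on its brighter probe set.

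Fga, Fgb and Fgg lie next to each other on rat chromosome 2 (GRCr8, 170652929 to 170660372 for Fgg, 170672169 to 170679572 for Fga and 170693966 to 170700875 for Fgb). Their promoters, 250 bases before to 50 bases after a start listed by RefSeq on GRCr8, are shown with that of C3. They were chosen because both Fgg probe sets and 1 of the 2 C3 probe sets (X52477_at, not M29866_s_at) had the same 3 highest samples, as described below, and the Fga and Fgb probe sets had others. The starts used for Fga, Fgb and C3 are those of the annotated genes. The start used for Fgg, 170653083, lies 154 bases inside the annotated gene, and that for Alb 64 bases inside. Capitals mark matches on either strand to the following motifs. CTGGGAA is a form of the interleukin 6 response element bound by STAT3, and shorter forms of it were not searched. TTCNNNGAA is the palindrome bound by STAT factors, and TTGNGNAA is a form of the site bound by C/EBP factors. Forms of the NF-kB and HNF1 sites were searched too and did not match in these 4 windows.
Fgg, plus strand of chr2:170652833-170653132: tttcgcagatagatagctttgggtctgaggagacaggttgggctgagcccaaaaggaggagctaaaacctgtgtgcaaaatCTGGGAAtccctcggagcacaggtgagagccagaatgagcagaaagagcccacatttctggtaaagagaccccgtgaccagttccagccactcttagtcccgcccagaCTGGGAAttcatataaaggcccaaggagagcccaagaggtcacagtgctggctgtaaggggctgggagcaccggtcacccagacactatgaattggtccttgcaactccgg
Fgb, minus strand of chr2:170700826-170701125: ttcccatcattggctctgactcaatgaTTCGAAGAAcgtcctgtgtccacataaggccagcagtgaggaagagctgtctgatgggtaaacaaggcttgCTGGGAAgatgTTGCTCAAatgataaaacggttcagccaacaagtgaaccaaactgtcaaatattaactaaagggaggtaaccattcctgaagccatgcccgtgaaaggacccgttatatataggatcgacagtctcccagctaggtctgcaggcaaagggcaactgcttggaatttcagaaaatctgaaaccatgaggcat
Fga, plus strand of chr2:170671919-170672218: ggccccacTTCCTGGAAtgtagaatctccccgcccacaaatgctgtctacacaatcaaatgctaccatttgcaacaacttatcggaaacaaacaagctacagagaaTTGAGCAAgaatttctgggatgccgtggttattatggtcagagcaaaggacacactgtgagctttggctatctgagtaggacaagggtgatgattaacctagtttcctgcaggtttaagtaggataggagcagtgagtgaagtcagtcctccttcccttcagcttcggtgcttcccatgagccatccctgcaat
C3, minus strand of chr9:2201290-2201589: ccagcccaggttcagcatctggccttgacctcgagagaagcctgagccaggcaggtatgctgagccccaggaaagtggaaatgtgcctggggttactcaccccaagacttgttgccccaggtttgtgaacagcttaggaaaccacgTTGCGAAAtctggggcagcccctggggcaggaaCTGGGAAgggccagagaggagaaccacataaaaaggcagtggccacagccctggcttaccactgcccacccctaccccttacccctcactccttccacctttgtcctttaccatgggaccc
CTGGGAA occurred in Fgg, with its first base at -169 and at -61 from the start used, in Fgb at -152 and in C3 at -71, and in 11.3% of all 33469 rat promoters of the same length. TTCNNNGAA occurred in Fga and Fgb and in 8.87% of all promoters, and TTGNGNAA in Fga, Fgb and C3 and in 13.3% of all. The capitals did not overlap each other in these windows. A second window listed for Fga, with a start slightly downstream, holds the TTGNGNAA match only. Promoters were listed for 6 of the 7 genes; that of Alb held no match to the 5 motifs, and that of Orm1 held TTGNGNAA at 2 places and the NF-kB form at 1. A match describes the letters and shows no binding.

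Fga, which encodes the alpha chain from which thrombin removes a short peptide, had the largest shock effect of the 20. Probe set M35601_at read 110.3 and 108.3 intensity units on the near-identical T/HS replicates 1 and 3 and 117.5 on T/HS replicate 2. T/HS-LDL gave 110.0, 110.3 and 107.0 in the same order, T/SS-LDL 95.02, 95.3 and 93.1, and T/SS 94.6 and 99.2 on the near-identical replicates 2 and 3 and 79.6 on replicate 1. Both samples of each shocked group thus lay above both samples of each sham-shocked group, at a signal near the low end of the arrays (mean percentile 9.66). How many of all probe sets separate in this way was not counted. The log2 difference was 0.37 ± 0.12 between T/HS and T/SS and 0.21 ± 0.12 between T/HS-LDL and T/SS-LDL (SE with 2 samples in each group, adjusted p 0.482 and 0.998 from limma). Over both duct states it was 0.29 ± 0.08, with a 95% interval from 0.09 to 0.49 and a limma adjusted p of 0.403. With the 12 arrays as separate samples, which counts the near-identical arrays as if separate, this value was 0.255 with an adjusted p of 0.0184.

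The other 2 Fga probe sets did not show the same separation. M35601_g_at, built on the same sequence entry, read 167 and 169.7 on T/HS replicates 1 and 3 and 191.6 on replicate 2, against 153.4, 157.2 and 153.6 in T/HS-LDL, 154.3, 154.1 and 153.9 in T/SS-LDL, and 150.3, 153.7 and 159.7 on T/SS replicates 2, 3 and 1. T/HS stood above every other group there, and the other groups lay between 150.3 and 159.7 units. The log2 difference was 0.205 ± 0.10 against T/SS (limma adjusted p 0.604) and 0.22 ± 0.10 against T/HS-LDL (limma adjusted p 0.775). On rc_AA875097_at the arrays lay between 72.7 and 89.3 units and the T/HS and T/SS samples overlapped. Both readings are low: mean percentile 18.1 and 5.69 of the arrays.

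Fgb, which encodes the beta chain, had small shock differences of opposite sign in the 2 duct states on its brighter probe set. The signal there was low (mean percentile 18.5). Its range over the 8 samples was 1.25-fold, against a median of 1.35-fold over all probe sets. U05675_at read 159.6, 160.4 and 153.4 on T/HS replicates 1, 3 and 2, 163.8, 166.2 and 166.6 in T/HS-LDL, 157.9, 158.0 and 142.3 in T/SS-LDL, and 177.7, 177.7 and 174.3 on T/SS replicates 2, 3 and 1. T/SS was the highest group and T/SS-LDL the lowest on average, and none of the 4 pairs of groups compared overlapped. The log2 difference was -0.17 ± 0.10 between T/HS and T/SS, 0.145 ± 0.10 between T/HS-LDL and T/SS-LDL and -0.23 ± 0.10 between T/SS-LDL and T/SS (limma adjusted p 0.646, 0.998 and 0.896). Subtracting the effect in ligated rats from that in rats with an open duct gave an interaction of -0.31 ± 0.135 (limma adjusted p 1.0, unadjusted p 0.0546). The 2 shock effects each share a sham group with the ligation contrast. M35602_at, at mean percentile 8.06, lay between 86.5 and 98.3 units on all 12 arrays, with log2 differences of at most 0.06 in size in the 6 contrasts.

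Fgg, which encodes the gamma chain that carries binding sites for platelet and leukocyte integrins, was the most variable of the 7 genes, with differences of up to 2.56-fold between the samples of 1 group. J00735_g_at read 896 and 804 on T/HS replicates 1 and 3 and 2176 on T/HS replicate 2. In T/HS-LDL it read 1401 and 1392 on replicates 1 and 3 and 2286 on replicate 2. In T/SS-LDL it was 3159 and 3179 on replicates 1 and 3 and 1267 on replicate 2, and in T/SS it was 1213 and 1214 on replicates 2 and 3 and 1042 on replicate 1. The high samples were T/SS-LDL replicates 1 and 3, T/HS-LDL replicate 2 and T/HS replicate 2, 1 in each group except T/SS. The 2 samples of a group differed 2.56-fold in T/HS, 1.64-fold in T/HS-LDL, 2.50-fold in T/SS-LDL and 1.16-fold in T/SS. Over the 8 samples the range was 3.73-fold, wider than in 98.1% of all probe sets, whose median range was 1.35-fold.

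The second Fgg probe set, J00735_at, built on the same entry, ranked the same 3 samples highest. It read 274 and 242 on T/HS replicates 1 and 3 and 481.5 on replicate 2, 324, 328 and 544 in T/HS-LDL, 736, 740.4 and 376 in T/SS-LDL, and 345, 347 and 268 on T/SS replicates 2, 3 and 1. The shock effect on J00735_g_at was 0.27 ± 0.56 with the duct open and -0.165 ± 0.56 with it ligated (limma adjusted p 0.923 and 0.998). Its 95% intervals, from -1.05 to 1.60 and from -1.49 to 1.16, leave room for a change of over 2-fold either way. Both T/SS-LDL samples lay above both T/SS samples, with log2 differences of 0.83 ± 0.56 on J00735_g_at and 0.79 ± 0.43 on J00735_at (limma adjusted p 0.896 for both). Without T/HS replicate 2 the duct-open effect on J00735_g_at was -0.405, and the duct-ligated effect was 0.496 without T/SS-LDL replicates 1 and 3 and 0.19 without T/HS-LDL replicates 1 and 3; the ligation effect on J00735_g_at was 0.172 without T/SS-LDL replicates 1 and 3.

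A2m encodes alpha-2-macroglobulin, a large plasma protein that traps proteases. Its brightest probe set, M23566exon_s_at, read 7396, 7395 and 7248 on T/HS replicates 1, 3 and 2, 7264, 7307 and 6715 in T/HS-LDL, 5857, 5951 and 6984 in T/SS-LDL, and 6650, 6817 and 7109 on T/SS replicates 2, 3 and 1. T/HS did not overlap with T/SS and was higher by a log2 difference of 0.08 ± 0.11, and the ligated groups overlapped. Over both duct states the shock effect was 0.10 ± 0.08, with a 95% interval from -0.09 to 0.29 and a limma adjusted p of 0.783. The suffix _s_at marks probes that can match more than 1 transcript; which ones these match was not tested. The A2m relatives Mug1 and Pzp had their own probe sets at percentile 5.98 and 8.67.

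Of the other 5 A2m probe sets, M22670cds_g_at read 968, 1026 and 900.2 on T/HS replicates 1, 3 and 2, against 807, 816 and 874 on T/SS replicates 2, 3 and 1, a log2 difference of 0.17 ± 0.105 (limma adjusted p 0.677). X13983mRNA_at stayed between 1473 and 1713 units and rc_AA900582_at between 959 and 1145, with shock effects over both duct states of 0.03 ± 0.08 and -0.003 ± 0.07, whose signs changed when single samples were left out. M22670cds_at gave 197 units on T/SS-LDL replicate 2 and 110.5 to 143.7 on the other 11 arrays. Its log2 difference was -0.275 between T/HS-LDL and T/SS-LDL, 0.226 between T/SS-LDL and T/SS (SE 0.238 each, limma adjusted p 0.998 and 0.921) and 0.364 ± 0.337 for the interaction (limma adjusted p 1.0). Without T/SS-LDL replicate 2 these values were 0.12, -0.169 and -0.031. The dimmest, rc_AI113046_at, lay at percentile 0.681 of the arrays, between 47.8 and 59.5 units.

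Alb encodes albumin, the main protein of plasma. Its brightest probe set, rc_AA945321_at, read 419.7, 398 and 353 on T/HS replicates 1, 3 and 2, 350.2, 364 and 334 in T/HS-LDL, 324, 327 and 316 in T/SS-LDL, and 400.5, 404.5 and 354 on T/SS replicates 2, 3 and 1. The T/SS-LDL samples were the lowest of all and lay below both T/SS samples, by a log2 difference of -0.235 ± 0.12 (limma adjusted p 0.896), while T/HS and T/SS overlapped. On rc_AA866237_s_at, T/HS read 243, 214.5 and 241 on replicates 1, 3 and 2, against 166, 161 and 208 in T/HS-LDL, 188.5, 199 and 196 in T/SS-LDL, and 210.0, 202.5 and 195 on T/SS replicates 2, 3 and 1. T/HS was the highest group there, by 0.35 ± 0.13 against T/HS-LDL and 0.23 ± 0.13 against T/SS (limma adjusted p 0.775 and 0.649). With the 12 arrays as separate samples the difference from T/HS-LDL was 0.39 with an adjusted p of 0.0447. As for A2m, the suffix _s_at marks probes that can match more than 1 transcript. The 2 rc_AA860062 probe sets read between 95.5 and 126.9 units (rc_AA860062_at) and between 134 and 180.1 units (rc_AA860062_g_at).

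C3, the central protein of the complement cascade, had its highest group mean in T/SS-LDL on both probe sets. M29866_s_at read 4831, 4929 and 4991 on T/HS replicates 1, 3 and 2, 4312, 4446 and 5076 in T/HS-LDL, 6377, 6400 and 5505 in T/SS-LDL, and 4871, 4727 and 4966 on T/SS replicates 2, 3 and 1. Both T/SS-LDL samples lay above the samples of every other group. The log2 difference was -0.33 ± 0.12 between T/HS-LDL and T/SS-LDL and 0.28 ± 0.12 between T/SS-LDL and T/SS (limma adjusted p 0.998 and 0.896), which share the T/SS-LDL samples. Between T/HS and T/SS it was 0.02 ± 0.12, and -0.009 without T/SS replicates 2 and 3 and -0.001 without T/HS replicate 2. The interaction was 0.35 ± 0.17 (limma adjusted p 1.0, unadjusted p 0.0788). With the 12 arrays as separate samples the difference between T/HS-LDL and T/SS-LDL was -0.40 with an adjusted p of 0.0355. This probe set too has the suffix _s_at, and which transcripts it matches was not tested.

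The second C3 probe set, X52477_at, did not keep the groups apart. It read 2556, 2434 and 3069 on T/HS replicates 1, 3 and 2, 2683, 2636 and 3337 in T/HS-LDL, 4068, 4045 and 2526 in T/SS-LDL, and 2601, 2601 and 2540.0 on T/SS replicates 2, 3 and 1. The difference of T/SS-LDL from T/SS was 0.32 ± 0.24 (limma adjusted p 0.896), and it was -0.025 without T/SS-LDL replicates 1 and 3. The 3 high samples, T/SS-LDL replicates 1 and 3, T/HS-LDL replicate 2 and T/HS replicate 2, were the same 3 of 8 as for Fgg, a likeness seen after the values were known. The 3 samples were taken from Fgg J00735_g_at, which therefore matches by definition, and J00735_at reports the same gene. The same 3 samples were the highest in 198 of all 8740 probe sets (2.27%). Among the 20, C3 X52477_at was the only such probe set of a gene other than Fgg.

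**Figure D2:**
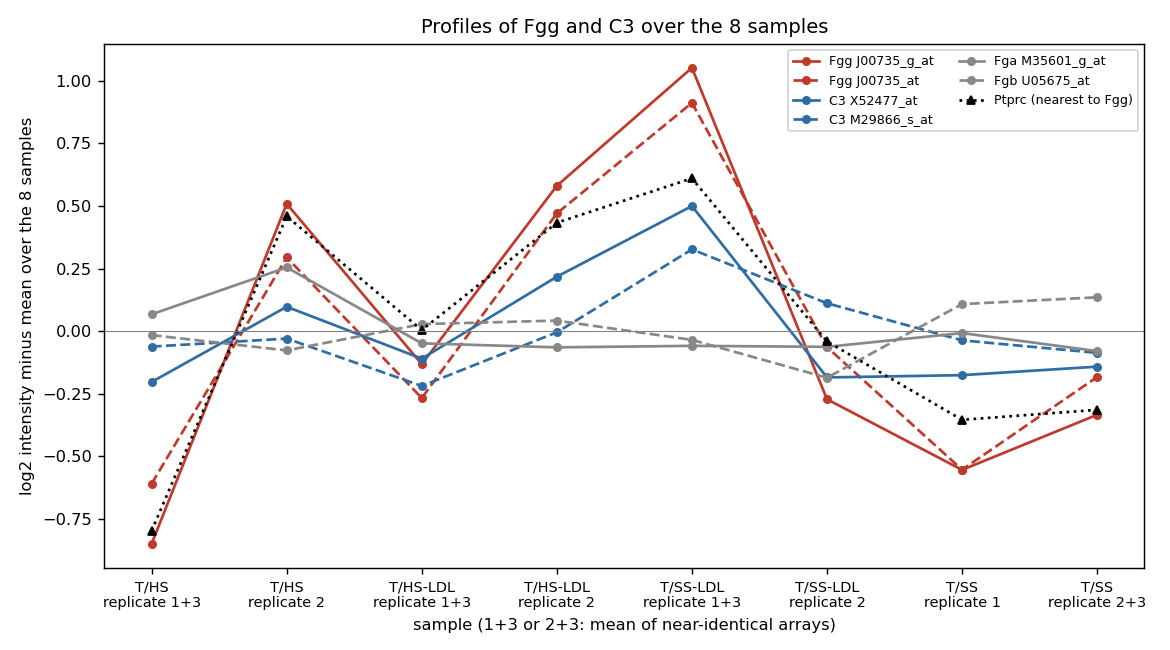
Log2 intensity minus its mean over the 8 samples (vertical axis) for Fgg, C3, Fga, Fgb and Ptprc, in each sample (horizontal axis); lines join the values of a probe set and have no meaning between samples. Both Fgg lines and the C3 line of X52477_at peak at T/HS replicate 2, T/HS-LDL replicate 2 and T/SS-LDL replicates 1+3, where the lines of Fga and Fgb show no common peak.

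Genes with a profile like that of Fgg were sought by the root-mean-square difference of log2 values centred over the 8 samples, among 7004 probe sets with 1 symbol. Fgg was the only one of the 7 genes whose brightest probe set ranged over more than 1 log2 unit, so it alone was searched. The nearest was Ptprc, the leukocyte phosphatase CD45, at 0.20 log2 units, followed by Hivep1, a zinc finger transcription factor, at 0.26 and Pkib, an inhibitor of protein kinase A, at 0.27, against a median of 0.64 over the candidates. Ptprc read 189 in T/HS replicates 1 and 3 (mean of the pair) and 450.4 in T/HS replicate 2, 329 and 442.5 in T/HS-LDL, 500.3 and 319 in T/SS-LDL, and 264 and 256.5 in T/SS. Ptprc was picked for its likeness, so sharing the high and low samples of Fgg follows from the search and is no further result. A flat profile would lie at 0.605 log2 units from that of Fgg, close to the median of the candidates.

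Orm1 encodes alpha-1-acid glycoprotein, a plasma carrier of drugs and lipids that rises in the acute phase. V01216_at read 294, 294 and 282 on T/HS replicates 1, 3 and 2, 308.5, 297.5 and 261 in T/HS-LDL, 283.5, 287 and 249 in T/SS-LDL, and 234, 228 and 295.5 on T/SS replicates 2, 3 and 1. The groups overlapped in every comparison. The shock effect was 0.14 ± 0.15 with the duct open and 0.08 ± 0.15 with it ligated (limma adjusted p 0.822 and 0.998). Over both duct states its 95% interval ran from -0.14 to 0.36. The duct-open effect was -0.036 without T/SS replicates 2 and 3, and the duct-ligated one was -0.02 without T/SS-LDL replicate 2 and -0.029 without T/HS-LDL replicates 1 and 3.

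Counted by comparison, the 20 probe sets were set beside the share of all probe sets whose groups did not overlap. T/HS lay wholly above T/SS in 6 of 20, against 19.2% of all probe sets, and wholly below in 1, against 20.9%. T/HS lay above T/HS-LDL in 4, against 18.4%, and below in 1, against 15.7%. T/HS-LDL lay above T/SS-LDL in 6, against 16.8%, and below in 1, against 12.4%. T/SS-LDL lay above T/SS in 4, against 16.2%, and below in 5, against 24.5%. Both shocked groups lay above their sham groups in 2 of 20, Fga M35601_at and Alb rc_AA860062_g_at, against 4.63% of all, and below in 0, against 4.32%. By an unadjusted p under 0.05, 1 of 20 passed between T/HS and T/SS (8.8% of all), 1 between T/HS and T/HS-LDL (6.37%), 1 between T/HS-LDL and T/SS-LDL (3.79%), 1 between T/SS-LDL and T/SS (4.23%) and 0 for the interaction (2.99%). Probe sets of 1 gene are not independent, so these counts describe the 20 only.

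**Figure D3:**
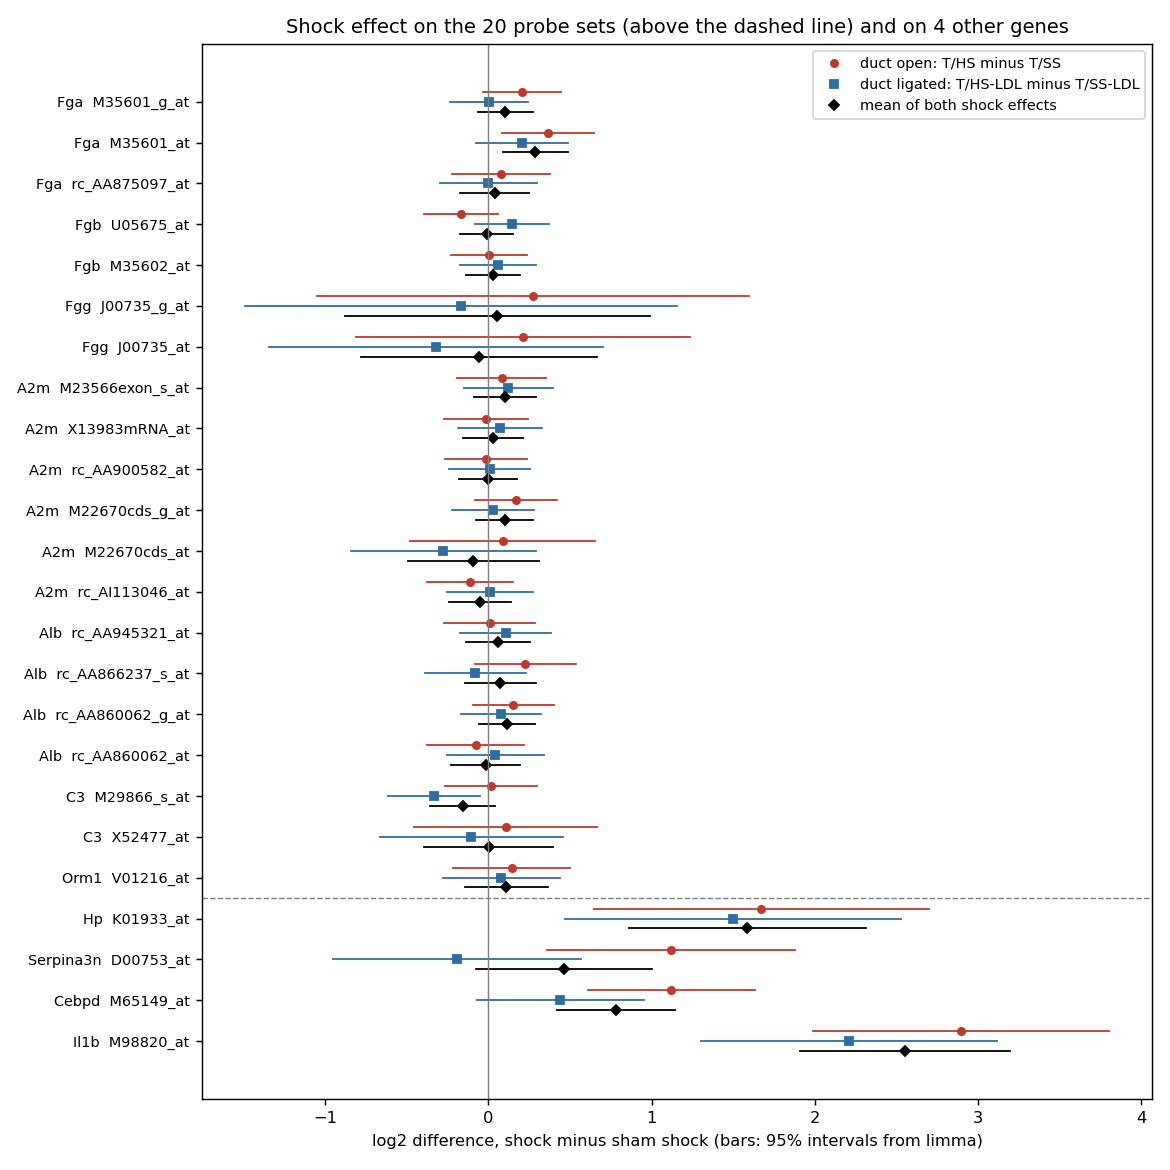
Log2 difference of shocked minus sham-shocked lungs (horizontal axis) with 95% intervals from limma, for the 20 probe sets and, below the dashed line, for Hp, Serpina3n, Cebpd and Il1b. Red circles are T/HS minus T/SS, blue squares T/HS-LDL minus T/SS-LDL and black diamonds their mean; the black intervals of all 20 lie within 1 log2 unit of 0, and that of Hp runs from 0.86 to 2.31.

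Other plasma and acute phase proteins were listed for comparison, with 1 probe set per gene. Of 41 listed genes 30 were measured, and 0 passed in any of the 6 contrasts by limma. For shock over both duct states 4 had an unadjusted p under 0.05, against 9.04% of all probe sets. Their median shock effect over both duct states was 0.05, beside 0.01 over all probe sets, with 21 of 30 above 0. The share of all probe sets above 0 was not counted, for this list or those below. Hp, which encodes haptoglobin, the carrier of free hemoglobin, had the largest difference of the list. It read 4798 (mean of replicates 1 and 3) and 13241 in T/HS, 7889 and 9218 in T/HS-LDL, 3554 and 2558 in T/SS-LDL, and 2692 and 2323 in T/SS, the last with the pair of replicates 2 and 3 first. Both shocked groups lay above their sham groups without overlap, by 1.67 ± 0.43 with the duct open and 1.5 ± 0.43 with it ligated, and by 1.59 ± 0.31 over both (limma adjusted p 0.416, 0.998 and 0.298). The shock effect of Serpina3n, a protease inhibitor of the acute phase, was 1.12 ± 0.32 with the duct open and -0.19 ± 0.32 with it ligated (limma adjusted p 0.434 and 0.998). Its interaction, 1.31 ± 0.45, did not pass the threshold (limma unadjusted p 0.0235). The T/SS-LDL samples of Serpina3n lay far apart, at 1487 (mean of replicates 1 and 3) and 848.5. The probe set annotated as Crp, whose suffix _f_at marks probes shared by a family of sequences, differed by 0.60 ± 0.19 over both duct states (limma adjusted p 0.424). Whether it reports Crp is uncertain, and it is 1 of the 4 at an unadjusted p under 0.05. Apoe and Fn1, the brightest of the list beside Hp, differed by 0.01 ± 0.075 and 0.09 ± 0.10.

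Of 29 other complement genes 16 were measured and 0 passed. For shock over both duct states 2 had an unadjusted p under 0.05, against 9.04% of all probe sets. Their median shock effect over both duct states was 0.10, beside 0.01 over all probe sets, with 13 of 16 above 0. C1qb, a subunit of the first component, was higher in all shocked samples than in the sham samples of the same duct state, by 0.235 ± 0.08 (limma adjusted p 0.441). C1r and C1s, the proteases of that component, read 14008 and 2962 in T/HS replicate 2, against 3631 and 1031 in the other T/HS sample and 3553 and 995.5 in the averaged T/SS sample, and their shock effects were 0.52 ± 0.38 and 0.28 ± 0.30. C5ar1, the receptor for the C5a peptide, differed by 0.22 ± 0.09.

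Among genes that drive or restrain the acute phase response, 0 of 21 measured (25 listed) passed. For shock over both duct states 5 had an unadjusted p under 0.05, against 9.04% of all probe sets. The median shock effect of the 21 over both duct states was 0.17, beside 0.01 over all probe sets, with 15 of 21 above 0. The inhibitors Socs3 (0.55 ± 0.16) and Il1rn (0.34 ± 0.14) were among the 5, so the count and the median do not describe drivers alone. Il1b, which encodes interleukin 1 beta, read 2654 and 6640 in T/HS, 2557 and 3233 in T/HS-LDL, 640.2 and 606 in T/SS-LDL, and 598 and 531 in T/SS, with the averaged pair first. Its shock effect was 2.55 ± 0.27 (limma adjusted p 0.156). Cebpd, a transcription factor induced in the acute phase, differed by 0.78 ± 0.15 (limma adjusted p 0.298), its relative Cebpb by 0.62 ± 0.215, Il6st, the signalling chain of the interleukin 6 receptor, by 0.72 ± 0.33 and Nfkbia, an inhibitor of NF-kB, by -0.06 ± 0.20. Il6 itself, chosen after its values were seen, read 297 in T/HS replicate 2 and 104 to 122 in the other 7 samples. T/HS replicate 2 was also the highest sample of Hp, Il1b and Cebpd. Over all probe sets, this array differed more than 2-fold from T/HS replicates 1 and 3 in 248 and 256. The other same-group pairs that were not near-identical differed so in 40 to 158.

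Among 10 measured genes (15 listed) for proteins that bind, cut or crosslink fibrinogen, 0 passed and the median shock effect over both duct states was 0.02. For that effect 0 had an unadjusted p under 0.05, against 9.04% of all probe sets. Itga2b, the platelet receptor chain for fibrinogen, differed by -0.26 ± 0.125, Icam1, an adhesion molecule that can bind fibrinogen, by -0.23 ± 0.16, Plat, which activates plasminogen, by 0.09 ± 0.16, and F13a1, which crosslinks fibrin, by 0.09 ± 0.12 (limma adjusted p 0.622, 0.766, 0.933 and 0.914).

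**Figure D4:**
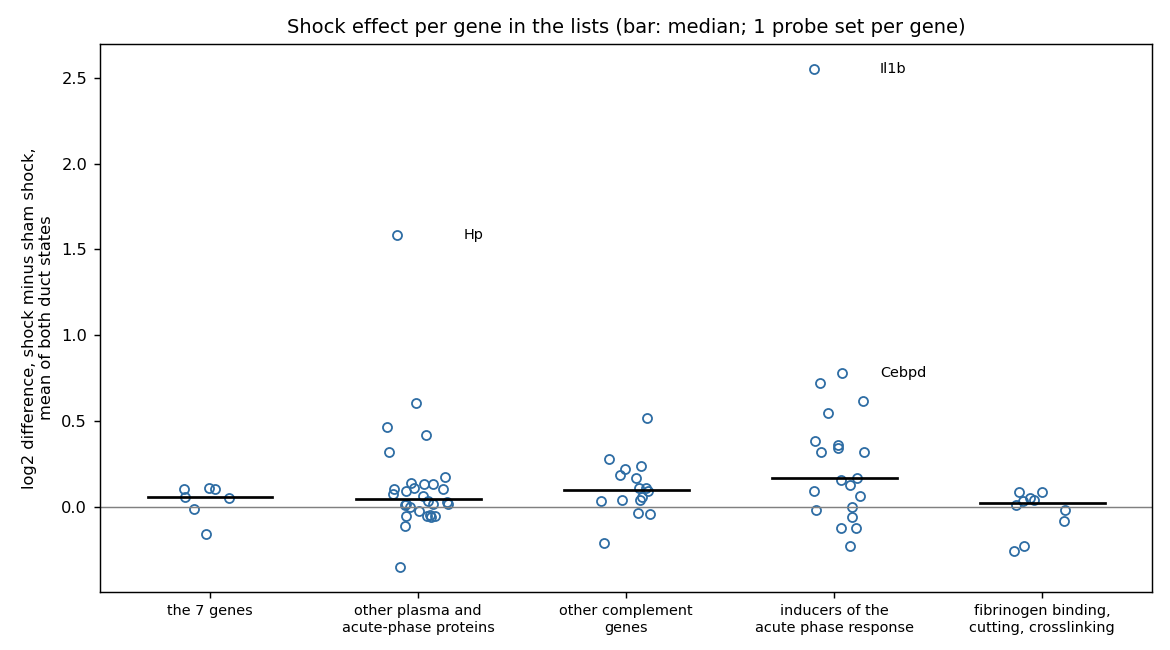
Shock effect over both duct states (vertical axis, log2 difference of shocked minus sham-shocked lungs) for each measured gene of 5 lists (horizontal axis), 1 circle per gene at its brightest probe set, with the list's median as a bar. The 7 genes lie between -0.16 and 0.11, with Hp at 1.59 and Il1b at 2.55 far above the medians of their lists.

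Markers of cells that could carry these transcripts were read beside them. The summed intensity of the 14 measured hepatocyte markers (of 17 listed) was 14297 and 11326 in T/HS, 11656 and 11361 in T/HS-LDL, 12885 and 12189 in T/SS-LDL, and 12941 and 11345 in T/SS, with the averaged pair first. Serpina1, the brightest of the 14, had the widest range in intensity. In the same order it read 5624 and 3005, 3233 and 3459, 5115 and 3893, and 4526 and 2870. The 14 lay between percentile 2.46 (Cyp3a2) and 87.5 (Serpina1) of the arrays, with a median of 46.7. The sum of the 7 neutrophil markers (of 9 listed) was 34195 and 66268 in T/HS, 55584 and 64967 in T/HS-LDL, 42267 and 30980 in T/SS-LDL, and 25587 and 20302 in T/SS. Most of this sum came from Lcn2, S100a9 and S100a8, at 27298, 25752 and 10731 in T/HS replicate 2. Both this sum and Hp were highest in T/HS replicate 2 and lowest in T/SS replicate 1. Of 3 macrophage markers measured (of 7), Lyz2 lay at percentile 99.7, level with the brightest probe sets, and made up most of their sum, which ran from 30993 to 40640 over the 8 samples. Cd14, the receptor for bacterial endotoxin, which neutrophils carry too, read 4690.0 and 8918 in T/HS, 4987 and 7502 in T/HS-LDL, 2824 and 2899 in T/SS-LDL, and 2448 and 3030.0 in T/SS, with a shock effect of 1.17 ± 0.23 (limma adjusted p 0.298). Both shocked groups lay above their sham groups in Cd14 without overlap, as in Hp. The sum of 2 mesothelial markers (of 5) from 3660 to 6078, that of 4 endothelial markers (of 7) from 9534 to 14746 and that of 3 platelet markers (of 6) from 7220 to 15179. The sum of platelet markers, most of it from Pf4, was highest, like Fgg and C3, in T/SS-LDL replicates 1 and 3, at 15179, but was 7615 in T/HS replicate 2. The part of these cells in the differences above was not tested.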

How the data were processed

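Rat lung RNA was measured on 12 RG-U34A arrays (Affymetrix). Per the submitters' processing notes, the authors made the deposited intensity values with RMA, which corrects background, normalizes arrays and sums up a probe set; its version was not given in the sources used here. The deposited intensities are linear, and log2 of each was used without further scaling. Removing 59 controls from 8799 probe sets left 8740. Of the 8740 tested, 7006 had 1 gene symbol in the platform annotation, 308 several and 1426 none.

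Arrays of a group whose log2 differences had a robust SD under 0.1 were averaged, which left 8 samples. A model of 4 groups was fitted over all probe sets with limma 3.58.1 in R 4.3.3 (lmFit, eBayes; 4 residual and 2.85 prior degrees of freedom, prior SD 0.131), with two-sided tests, Benjamini-Hochberg adjustment over 8740 probe sets and a threshold of 0.05. Intervals are 95% intervals from limma, unadjusted. The code was tested on simulated data. The labels call arrays biological replicates; the number of arrays limits the precision. Deviations of same-numbered arrays correlated above 0.1 in 3 of 18 pairs (r from -0.166 to 0.189), so the numbers were not used as pairs.

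All probe sets of the 7 genes were described; of each list, genes past the threshold (0 here), the 3 with the largest shock effect over both duct states and the 3 brightest were named, at the brightest probe set; for a gene ranging over more than 1 log2 unit, the 3 most alike. Genes and lists were chosen with earlier results of these data known. Coordinates and promoters are from RefSeq, GRCr8.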

Additional observations from a re-analysis of the deposited data

How the results depend on the processing

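With the 12 arrays as separate samples limma called 629 probe sets between T/HS and T/SS, 372 between T/HS and T/HS-LDL, 127 between T/HS-LDL and T/SS-LDL, 141 between T/SS-LDL and T/SS, 1 for the interaction and 733 for shock over both duct states, against 0 each with 8 samples; this fit treats near-identical arrays as independent. With the replicate number as a block the counts were 456, 130, 47, 21, 1 and 570 in the same order. The block could be fitted only on the 12 arrays. With each near-identical pair as a random block, 25 were called between T/HS and T/SS and 58 for shock over both duct states. Leaving out each sample in turn gave 0 to 139, 0 to 66, 0 to 2, 0 to 2, 0 to 27 and 0 to 108 calls in the same order as above; the counts of 139, 66, 27 and 108 came without T/HS replicates 1 and 3, where T/HS replicate 2 alone stood for its group and was taken to vary like the other groups. Of the 20 probe sets, 4 values passed with 12 separate arrays and 1 with the block (Fga M35601_at, shock over both duct states, 0.255 with an adjusted p of 0.0324), and 0 under the other alternatives. The fit without dim probe sets held 7 of the 20 (not Fga M35601_at), so the other 13 were run under 14 of the 15 alternatives.

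Of 120 values (20 probe sets in 6 contrasts), 57 kept their sign under all alternatives run on them, 63 changed it when some sample was left out and 13 of these also under another alternative. Among values printed above, leaving out a sample moved Fgg J00735_g_at over -0.405 to 0.952 (duct open) and -0.827 to 0.496 (duct ligated), Orm1 over -0.036 to 0.319 and -0.029 to 0.186, and C3 over -0.025 to 0.658 (X52477_at, T/SS-LDL and T/SS) and -0.009 to 0.041 (M29866_s_at, T/HS and T/SS, -0.002 with the lower-numbered arrays). A2m M22670cds_at moved over -0.67 to 0.12 (duct ligated), -0.169 to 0.621 (ligation) and -0.031 to 0.759 (interaction), and for shock over both duct states rc_AA900582_at over -0.044 to 0.037 (0.03 with 12 separate arrays and with the replicate block) and X13983mRNA_at over -0.018 to 0.074. Without a change of sign, the ligation effect moved over 0.172 to 1.495 for Fgg J00735_g_at and 0.304 to 1.279 for J00735_at, and Alb rc_AA866237_s_at (T/HS and T/HS-LDL) over 0.174 to 0.522. Adding quantile normalization, leaving out probe sets dimmer than the median, trend and robust settings of eBayes, or the lower-numbered array of each pair gave 0 calls in each contrast. With 2 samples per group, differences of the size printed here for most of these genes cannot be told from sample spread.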
